A study of Mus musculus with 6 samples.

Results

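A named list of 36 antiviral interferon-stimulated genes was followed in immune cells sorted from mouse hearts. All 36 were found among the 57010 genes of the count table, and all 36 passed the filter on low counts. The cells were labelled CD45+CD90.2-, that is leukocytes without the T cell antigen CD90.2. All 6 libraries carry the genotype label Ova DTG, from a line that expresses ovalbumin (Ova) in the heart, and all hosts had received OTI cells, CD8 T cells whose receptor recognises ovalbumin (100000 cells unless otherwise indicated, per the labels). The 3 libraries labelled ICI (treatment label OTI + ICI) came from mice given the immune checkpoint inhibitors anti-CTLA-4 and anti-PD-1 by intraperitoneal injection, 200 µg of each, and the 3 labelled isotype (OTI + Isotype) from mice given isotype control antibody. Sample titles of both groups name myocarditis. Every direction below rests on the group labels, so all rises and falls would turn over if the labels were exchanged. Strain, sex, age, time of sampling, the promoter of the ovalbumin transgene and any pooling of hearts are not stated in the labels. Replicates are numbered as biological replicates, and nothing further says how they were separated, so p-values measure the spread between these libraries.

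Type I interferons bind a shared receptor (Ifnar1 and Ifnar2), whose kinases Jak1 and Tyk2 pass the signal to the factor ISGF3. This factor, which includes Stat2 and Irf9, binds interferon-stimulated response elements in gene promoters. Its target genes encode proteins that sense viral RNA, degrade or sequester it, starve viruses of nucleotides or modify host proteins. Interferon gamma acts through a receptor of its own and reaches some of the same genes, and in macrophages and monocytes many of them are transcribed at a low level without infection.

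Libraries held 21528274 to 30736316 counts. Ptprc, the gene of CD45, measured 1234 to 1423 CPM (counts scaled to a common library total) in the libraries labelled ICI and 949 to 1065 CPM in those labelled isotype, and Thy1, the gene of CD90.2, at most 0.0929 CPM in any library. The 10 resident macrophage markers summed to 8831 to 10098 CPM in ICI and 252 to 324 CPM in isotype, and all 10 were called higher in ICI, Cd209f being at 0 in isotype. The 7 monocyte markers summed to 798 to 1065 CPM in ICI and 4197 to 8836 CPM in isotype, and 6 of the 7 were called lower. The 7 plasmacytoid dendritic cell markers summed to 59.3 to 148 CPM against 4.70 to 7.61 CPM, with 4 of 6 tested called higher. The 5 B cell markers summed to 196 to 671 against 3.89 to 8.72 CPM, with all 5 called higher. Of the plasmacytoid set, Ly6d measured 21.98, 34.2 and 82.3 CPM in ICI replicates 1 to 3, and Spib 11.6, 17.5 and 41.1 CPM. Both were highest in ICI replicate 3, as all 5 B cell markers were. Siglech measured 20.6, 6.28 and 19.97 CPM in ICI, and Ccr9 and Cd300c were not called. Which cells carried Ly6d and Spib was not tested. The part of these cell type markers in the results below was not tested. In a bulk sample, fewer cells of a type and less RNA per cell cannot be told apart. Replicate 3 of each group carried more Xist than Y-linked counts (2786 against 6 in ICI, 1844 against 130 in isotype), unlike the other libraries. Without replicate 3 of both groups the same numbers of the 36 genes were called, 16 lower and 5 higher, and all 21 called genes kept their call.

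More of the 36 genes were lower than higher in the libraries labelled ICI, but the list did not move as one. By edgeR's quasi-likelihood test, with Benjamini-Hochberg adjustment over 14575 genes and a threshold of 0.05, 16 genes were called lower, 5 were called higher and 15 were not called. The 21 called genes of 36 stand beside 68.9% called in either direction among all tested genes. There 33.9% were called lower and 35% higher, so 44.4% of the 36 genes lower stood above that background and 13.9% higher stood below it. CPM of the groups did not overlap for 17 of the 36 genes in the lower direction and for 7 in the higher, where the background was 28.2% and 45.3% of all tested genes (73.5% in either direction). The median log2 fold change, ICI minus isotype, was -0.59 over the 36 genes and 0.03 over all tested genes. Scaling by upper-quartile factors or library totals raised the median of all genes to 0.21 and 0.23. The all-gene split then moved from 5102 higher and 4938 lower to 6155 and 3849 or to 6255 and 3724, and that of the 36 genes to 7 higher and 16 lower under both. Against a 1.5-fold change, 9 of the 36 genes were lower and 3 higher, with backgrounds of 16.5% and 21.3%.

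**Figure D1:**
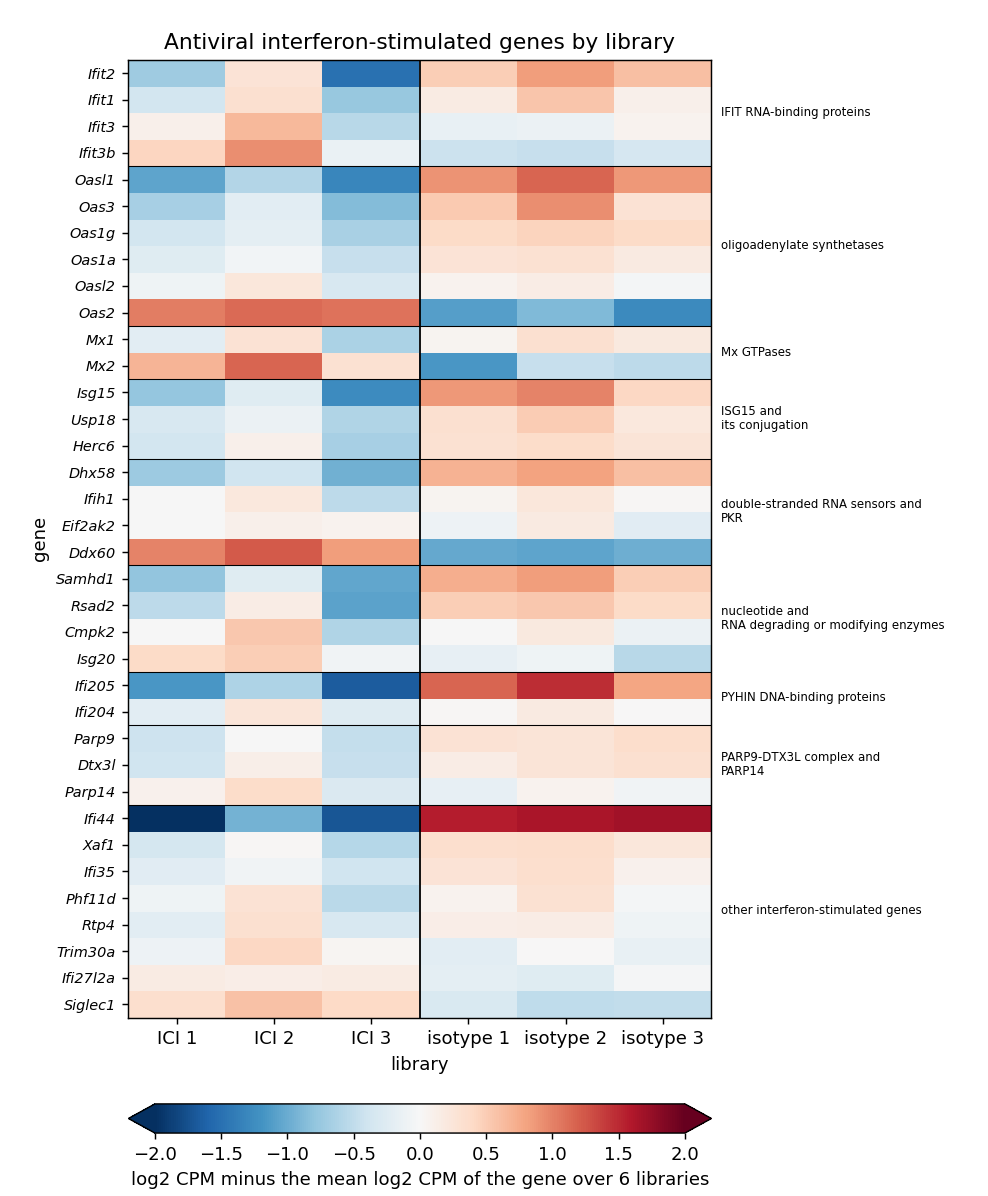
Each cell is the log2 CPM of a gene in a library minus its mean log2 CPM over the 6 libraries, with genes in rows by role and libraries in columns, and the colour scale stopping at 2 in either direction. Ifi44, Ifi205 and Oasl1 are darkest blue in ICI and red in isotype, while Oas2, Ddx60 and Mx2 show the opposite, and most rows are lightest or reddest in ICI replicate 2 within that group.

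**Figure D2:**
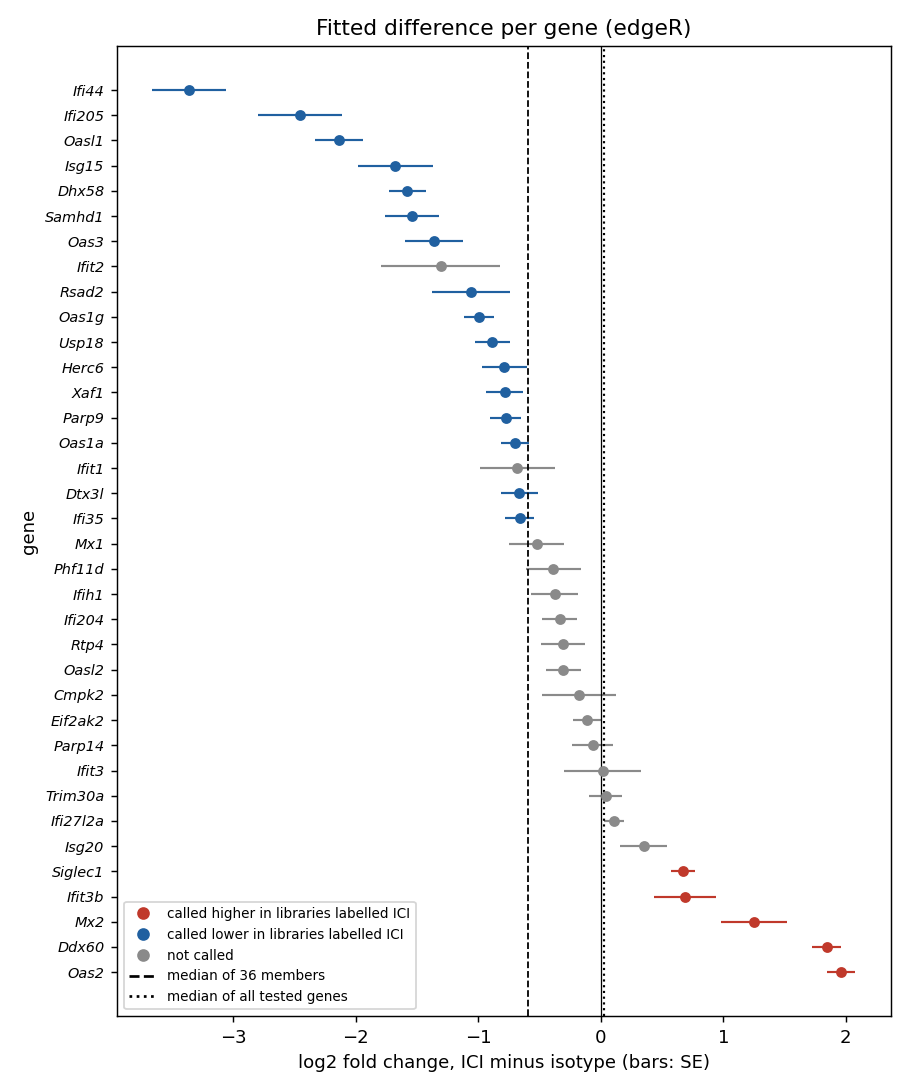
Points are fitted log2 fold changes (ICI minus isotype) per gene with bars of 1 SE, ordered from lowest to highest and coloured by call. They run from -3.36 for Ifi44 to 1.96 for Oas2, with the dashed line at the median of the 36 genes (-0.59) and the dotted line at the median of all tested genes (0.03).

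Promoters of genes that moved in opposite directions, or hardly at all, are shown first, because the response element is where ISGF3 binds. Windows from 250 bases before to 50 after the annotated start (RefSeq, GRCm38.p6) were at hand for 25 of the 36 genes. Both strands were searched for 2 copies of GAAA with any 2 bases between them, the core of an interferon-stimulated response element, whose matches may overlap each other, and for TTCNNNGAA, the form of a gamma-activated site, which reads the same on both strands. The first motif occurred in 13 of these 25 genes (52%) and in 1079 of 27025 genes overall (3.99%), and at least 2 matches were present in 8 of the 25 (32%) against 72 genes overall (0.266%). The second occurred in 6 of 25 (24%) and in 2582 genes overall (9.55%). Matches to the 2 motifs did not overlap in these windows. By call, the first motif was present in both of the 2 called-higher genes with a window, in 6 of 13 called lower and in 5 of 10 not called. A match describes letters, not a bound site. The 250 bases before the start are printed for Isg15 and Oas3 (both called lower), Ddx60 (called higher), and the closely related pairs Ifit3 and Ifit3b and Oas1a and Oas1g, with matches to the response element core, on either strand, in capitals. Isg15 lies at chr4:156200819-156201068 and Oas3 at chr5:120777660-120777909, both on the minus strand. Ddx60 lies at chr8:61927837-61928086 on the plus strand. Ifit3 lies at chr19:34583279-34583528 and Ifit3b at chr19:34607707-34607956, both on the plus strand, and Oas1a at chr5:120907526-120907775 and Oas1g at chr5:120887614-120887863, both on the minus strand.
Isg15: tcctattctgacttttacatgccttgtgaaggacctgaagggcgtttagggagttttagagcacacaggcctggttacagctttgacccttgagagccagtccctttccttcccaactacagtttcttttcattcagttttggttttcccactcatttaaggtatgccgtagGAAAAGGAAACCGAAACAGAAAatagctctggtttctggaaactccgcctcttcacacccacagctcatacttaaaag
Oas3: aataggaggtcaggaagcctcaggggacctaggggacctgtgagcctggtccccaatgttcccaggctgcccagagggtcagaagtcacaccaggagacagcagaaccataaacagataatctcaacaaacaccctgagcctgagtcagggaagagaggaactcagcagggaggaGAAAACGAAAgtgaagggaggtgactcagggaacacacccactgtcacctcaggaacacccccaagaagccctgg
Ddx60: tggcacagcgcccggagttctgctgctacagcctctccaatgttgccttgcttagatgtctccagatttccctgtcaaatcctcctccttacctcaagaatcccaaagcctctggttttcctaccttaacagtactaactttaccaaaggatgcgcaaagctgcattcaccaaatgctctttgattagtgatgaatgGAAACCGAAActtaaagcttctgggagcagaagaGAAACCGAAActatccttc
Ifit3: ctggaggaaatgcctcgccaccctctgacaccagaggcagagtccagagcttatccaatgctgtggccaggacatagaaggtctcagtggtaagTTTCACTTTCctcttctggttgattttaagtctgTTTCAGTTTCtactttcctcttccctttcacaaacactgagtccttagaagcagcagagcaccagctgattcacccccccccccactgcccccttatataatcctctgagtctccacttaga
Ifit3b: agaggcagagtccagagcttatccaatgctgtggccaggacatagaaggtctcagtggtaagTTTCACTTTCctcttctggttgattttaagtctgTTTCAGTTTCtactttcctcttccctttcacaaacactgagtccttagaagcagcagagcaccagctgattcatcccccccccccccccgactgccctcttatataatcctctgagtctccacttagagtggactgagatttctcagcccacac
Oas1a: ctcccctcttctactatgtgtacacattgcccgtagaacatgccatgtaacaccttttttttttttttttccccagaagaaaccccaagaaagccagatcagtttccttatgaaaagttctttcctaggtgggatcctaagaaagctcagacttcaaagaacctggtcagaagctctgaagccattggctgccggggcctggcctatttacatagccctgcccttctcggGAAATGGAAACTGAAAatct
Oas1g: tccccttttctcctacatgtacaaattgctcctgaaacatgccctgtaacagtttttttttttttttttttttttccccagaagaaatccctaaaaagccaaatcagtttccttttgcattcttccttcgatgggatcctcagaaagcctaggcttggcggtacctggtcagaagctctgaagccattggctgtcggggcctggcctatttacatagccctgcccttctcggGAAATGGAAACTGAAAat

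Isg15 carries 3 overlapping matches from 78 to 57 bases before its start, Oas3 1 match from 75 bases before it, and Ddx60 2 matches that begin 53 and 19 bases before it. Thus a gene called lower and a gene called higher each carry the same letters near the start. The 2 matches of Ifit3 (from 156 and 122 bases before the start, on the opposite strand) recur in Ifit3b at 188 and 154 bases before it. Over their shared span the 2 windows were identical at 259 of 274 aligned columns (94.5%), and those of Oas1a and Oas1g at 261 of 303 (86.1%).

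**Figure D3:**
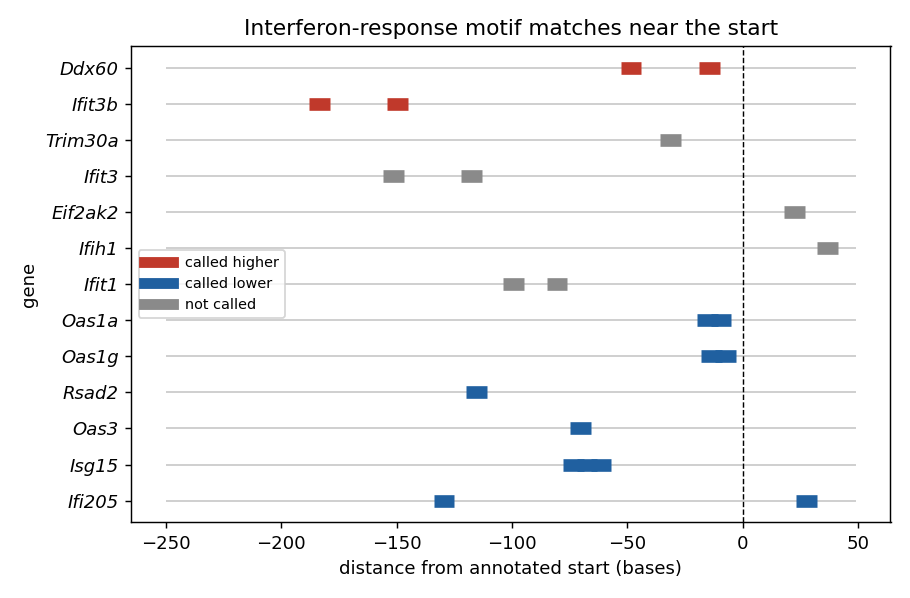
Bars mark matches to the response element core on either strand by distance in bases from the annotated start (dashed line), 1 row for each of the 13 genes with a match, coloured by call. Matches of called-higher, called-lower and not-called genes lie in the same stretch, mostly before the start.

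Genes of the oligoadenylate synthetase family, whose active enzymes make short adenylate chains when they meet double-stranded RNA, went in both directions. Of 6, 4 were called lower and 1 higher. Counts by role, here and below, rest on few genes and stand beside 33.9% lower and 35% higher among all tested genes. Oas2 (ENSMUSG00000032690) measured 189, 204 and 198 CPM in the 3 libraries labelled ICI and 43.0, 50.5 and 38.2 CPM in those labelled isotype. Every ICI library exceeded every isotype library, and the fitted rise was 3.90-fold (log2 1.96, SE 0.11, adjusted p = 5.07e-07, edgeR). Oas3 measured 74.7, 102 and 65.1 CPM in ICI against 171, 226 and 145 CPM in isotype, without overlap, and fell 2.57-fold (log2 -1.36, SE 0.24, adjusted p = 0.00200, edgeR). Oasl1 (ENSMUSG00000041827), reported in mouse to restrain translation of Irf7, measured 28.1, 39.0 and 23.7 CPM against 109, 131 and 107 CPM. The groups were far apart, and the fitted fall was 4.39-fold (log2 -2.14, SE 0.20, adjusted p = 4.43e-05, edgeR). Oas1g fell 1.99-fold and Oas1a 1.62-fold (adjusted p = 5.27e-05 and 0.000421, edgeR), but 57.6% of the 50-base words in transcripts of Oas1a also occur in Oas1g, so the counts of this pair are uncertain one by one. Oasl2, the member of this group with the highest CPM, measured 222, 279 and 190 CPM in ICI and 248, 263 and 232 CPM in isotype, overlapping between groups and not called (log2 -0.30, SE 0.14, adjusted p = 0.0893, edgeR).

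Of the 4 double-stranded RNA sensors and kinase, 1 was called higher, 1 lower and 2 not called. Dhx58 (ENSMUSG00000017830), which encodes LGP2, a helicase that modulates the sensors RIG-I and MDA5, measured 65.1, 81.8 and 55.5 CPM in ICI and 175, 188 and 163 CPM in isotype. All ICI libraries were below all isotype libraries, with a fall of 2.99-fold (log2 -1.58, SE 0.15, adjusted p = 2.11e-05, edgeR). Ddx60 (ENSMUSG00000037921), a helicase gene reported to aid RNA sensing, measured 88.5, 104 and 79.1 CPM in ICI and 21.8, 21.5 and 22.6 CPM in isotype. The isotype libraries were near-identical and far below, and Ddx60 rose 3.59-fold (log2 1.84, SE 0.12, adjusted p = 8.35e-07, edgeR). Ifih1, which encodes MDA5, and Eif2ak2, which encodes the kinase PKR, had log2 fold changes of -0.38 and -0.11 (adjusted p = 0.114 and 0.415, edgeR), their groups overlapping.

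Mx genes encode antiviral GTPases, in mouse a nuclear one (Mx1) and a cytoplasmic one (Mx2). Mx2 (ENSMUSG00000023341) measured 12.7, 17.9 and 9.80 CPM in ICI and 3.55, 5.80 and 5.53 CPM in isotype. The groups did not overlap and Mx2 rose 2.38-fold (log2 1.25, SE 0.27, adjusted p = 0.00298, edgeR). Mx1 measured 29.3, 41.5 and 21.9 CPM in ICI and 35.3, 42.3 and 38.8 CPM in isotype. Replicate 2 of ICI lay within the isotype range and Mx1 was not called (log2 -0.52, SE 0.23, adjusted p = 0.0762, edgeR).

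IFIT genes encode RNA-binding proteins that mark viral RNA by its end or its structure, and 1 of the 4, Ifit3b, was called, higher. Ifit2 (ENSMUSG00000045932) measured 86.3, 170 and 50.4 CPM in ICI and 198, 252 and 215 CPM in isotype. The groups did not overlap, yet ICI replicate 2 stood 3.39-fold above replicate 3, and Ifit2 was not called (2.47-fold, log2 -1.31, SE 0.49, adjusted p = 0.0626, edgeR). Without ICI replicate 2 it was called, 3.71-fold lower, and without ICI replicate 3 it was called at 1.95-fold lower (adjusted p = 0.00233 and 0.0397, edgeR). Ifit3 measured 92.7, 136 and 58.5 CPM in ICI and 77.9, 79.9 and 90.6 CPM in isotype, with a log2 fold change of 0.02 (SE 0.31, adjusted p = 0.966, edgeR). Ifit3b (ENSMUSG00000062488) measured 18.1, 25.4 and 12.2 CPM in ICI against 9.99, 9.69 and 10.6 CPM in isotype, a rise of 1.61-fold (log2 0.69, SE 0.25, adjusted p = 0.0381, edgeR). Its call was lost without any 1 of 5 libraries, ICI replicate 3 being the exception, with adjusted p from 0.0847 to 0.108 in edgeR. Since 51.2% of the 50-base words of Ifit3 also occur in Ifit3b, the split of reads between them is uncertain. Ifit1 had a log2 fold change of -0.68 (adjusted p = 0.0946, edgeR).

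All 3 genes of ISG15 conjugation were called lower, beside 33.9% of all tested genes. Isg15 (ENSMUSG00000035692), a ubiquitin-like protein attached to newly made proteins, measured 35.6, 51.2 and 25.4 CPM in ICI and 111, 121 and 80.5 CPM in isotype. The highest ICI library remained below the lowest isotype library, and Isg15 fell 3.19-fold (log2 -1.68, SE 0.31, adjusted p = 0.00384, edgeR). Usp18, which removes ISG15 and restrains the receptor, fell 1.85-fold, and Herc6, the main mouse ligase for ISG15, fell 1.73-fold (adjusted p = 0.000470 and 0.00584, edgeR). Of the words of Herc6, 23.8% also occur in the predicted gene Gm45193.

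Among the 4 enzymes acting on nucleotides or RNA, 2 were called lower. Samhd1 (ENSMUSG00000027639), which breaks down deoxynucleotides, measured 440, 637 and 370 CPM in ICI and 1258, 1352 and 1060 CPM in isotype. The groups were widely separated, with a fall of 2.91-fold (log2 -1.54, SE 0.22, adjusted p = 0.000556, edgeR). Rsad2, which encodes viperin, a maker of a chain-terminating nucleotide, fell 2.09-fold (adjusted p = 0.0274, edgeR). Its call was lost without ICI replicate 1 or without any 1 of the isotype libraries, with adjusted p from 0.0638 to 0.0823 in edgeR. Cmpk2, a nucleotide kinase gene, and Isg20, an RNA exonuclease gene, had log2 fold changes of -0.18 and 0.35 (adjusted p = 0.627 and 0.132, edgeR).

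PYHIN proteins bind DNA. Ifi205 (ENSMUSG00000054203) measured 62.6, 91.9 and 44.5 CPM in ICI and 315, 393 and 244 CPM in isotype. Its groups did not overlap and the fall was 5.49-fold (log2 -2.46, SE 0.34, adjusted p = 0.00134, edgeR), although 49.5% of its words occur in Ifi211. Ifi204, a DNA sensor gene, measured 314, 430 and 303 CPM in ICI and 371, 413 and 364 CPM in isotype, overlapping and not called (log2 -0.33, SE 0.14, adjusted p = 0.0622, edgeR). Of the words of Ifi204, 30.2% also occur in other genes, and 23.2% occur in Ifi211. Parp9 and Dtx3l encode partners in a complex that ADP-ribosylates and ubiquitinates proteins. Dtx3l measured 176, 250 and 168 CPM in ICI against 256, 275 and 290 CPM in isotype, and fell 1.59-fold (log2 -0.67, SE 0.15, adjusted p = 0.00413, edgeR). Parp9 fell 1.71-fold (adjusted p = 0.000380, edgeR), and Parp14, another ADP-ribosyltransferase gene, was not called (log2 -0.07, adjusted p = 0.745, edgeR).

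The largest fall of the 36 genes was in Ifi44 (ENSMUSG00000028037), an interferon-inducible gene reported to restrain viral replication. It measured 5.44, 13.2 and 7.85 CPM in ICI (8.84 ± 3.99, SD, n = 3) and 75.7, 79.7 and 82.1 CPM in isotype (79.2 ± 3.24). The isotype libraries lay close together and far above, and the fall was 10.3-fold (log2 -3.36, SE 0.30, adjusted p = 0.000107, edgeR). Xaf1, an antagonist of the apoptosis inhibitor XIAP, fell 1.72-fold and Ifi35 1.58-fold (adjusted p = 0.00139 and 0.000616, edgeR). Siglec1 (ENSMUSG00000027322), a sialic acid receptor that macrophages carry, measured 201, 240 and 211 CPM in ICI and 129, 113 and 114 CPM in isotype. The groups did not overlap and Siglec1 rose 1.59-fold (log2 0.67, SE 0.10, adjusted p = 0.000207, edgeR), while resident macrophage markers rose 10 of 10, whose part in this rise was not tested. Ifi27l2a measured 350, 343 and 348 CPM in ICI and 273, 263 and 305 CPM in isotype. Its CPM did not overlap but the fit, scaled by TMM factors, gave a log2 fold change of 0.11 (SE 0.08, adjusted p = 0.266, edgeR). Phf11d, Rtp4 and Trim30a were not called, with log2 fold changes of -0.39, -0.31 and 0.04.

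Per kilobase of transcript, Ifi27l2a was the highest of the 36 genes in both groups, at 750 ± 7.98 CPM per kilobase in ICI and 606 ± 47.2 in isotype (SD, n = 3). In ICI it was followed by Ifi204 (152 ± 30.6), Samhd1 (87.7 ± 25.2), Oas1a (76.1 ± 10.6) and Oasl2 (73.7 ± 14.4), and Samhd1, Oas1a and Oasl2 did not differ beyond their spread. In isotype the next were Samhd1 (223 ± 27.1), Ifi205 (197 ± 46.2), Ifi204 (167 ± 11.5) and Isg15 (138 ± 27.8), whose neighbours likewise lay within their spread. Oas2 moved from rank 31 in isotype (11.1 ± 1.56 CPM per kilobase) to rank 8 in ICI (49.7 ± 1.85). Ifi44 went from rank 22 (27.2 ± 1.11) to rank 36 (3.04 ± 1.37). The lowest level in isotype was that of Mx2, 2.05 ± 0.506 CPM per kilobase.

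For 4 pairs of related genes, ratios of CPM per kilobase within a library are given as a description with no test, because the pairs were chosen after their values were seen. Oas2 stood at 3.02, 2.38 and 3.62 times Oas3 in ICI and at 0.300, 0.266 and 0.314 times it in isotype, a 10.1-fold difference of ratios. The Oas2 level exceeded that of Oas3 in every ICI library and in no isotype library. Mx2 stood at 0.605, 0.604 and 0.625 times Mx1 in ICI and at 0.141, 0.192 and 0.199 times in isotype, a 3.49-fold difference, so Mx1 remained the higher gene throughout. Ddx60 stood at 0.501, 0.470 and 0.525 times Dhx58 in ICI and at 0.0459, 0.0420 and 0.0512 times in isotype, a 10.8-fold difference. Ifit3 stood at 2.35, 1.75 and 2.54 times Ifit2 in ICI and at 0.862, 0.694 and 0.922 times in isotype, a 2.67-fold difference. Since 51.2% of the 50-base words of Ifit3 also occur in Ifit3b, the level of Ifit3 is uncertain. Of the genes in these pairs, Ifit3, Ifit2 and Mx1 were not called between groups. The ratios of all 4 pairs do not depend on how libraries are scaled to each other.

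**Figure D4:**
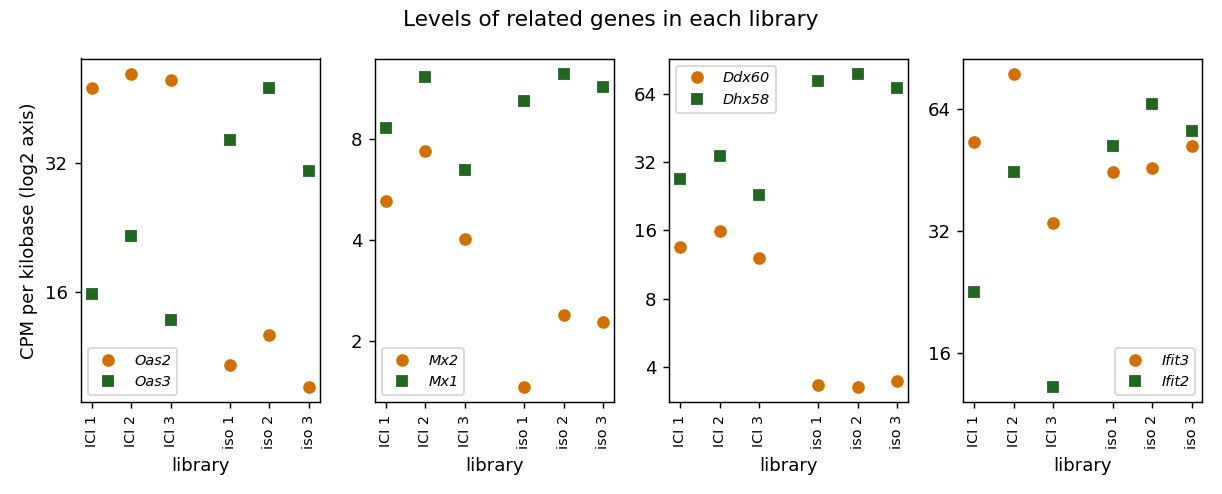
Points are CPM per kilobase of transcript on a log2 axis in each library for 4 pairs of related genes (orange circles and green squares; iso stands for isotype). Oas2 lies above Oas3 in the 3 ICI libraries and below it in the 3 isotype libraries, and the gap between Dhx58 and Ddx60 narrows in ICI.

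Within a group the 36 genes moved together from library to library. In the libraries labelled ICI, 35 of the 36 genes were highest in replicate 2, against 30.8% of all tested genes, and 30 were lowest in replicate 3, against 23.7%. The full order, replicate 2 over 1 over 3, held for 30 of 36 genes (83.3%) and for 13.1% of all tested genes. In isotype, replicate 2 was highest for 28 genes (77.8% against 29.9%) and the same order held for 23 (63.9% against 17.6%). The 36 genes come from the same libraries, so these counts are descriptions with no test. On the log2 scale after TMM scaling, the median deviation from the group mean was 0.36 in ICI replicate 2 and -0.32 in ICI replicate 3, and 0.14 and -0.11 in isotype replicates 2 and 3. The CPM ratio of ICI replicate 2 to replicate 3 had a median of 1.56 over the 36 genes and ran from 0.98 for Ifi27l2a to 3.39 for Ifit2. In isotype that ratio had a median of 1.13. Summed over the 36 genes, the ICI libraries held 3806, 4957 and 3364 CPM and the isotype libraries 5518, 6055 and 5182 CPM, so the groups did not overlap. Monocyte markers summed to 1065 CPM in ICI replicate 2 and 798 CPM in replicate 3, and B cell markers to 253 and 671 CPM. Replicate 3 of each group was also the library with more Xist than Y-linked counts. The part of these differences in this spread was not tested. Without ICI replicate 2, Ifit1, Ifit2, Oasl2, Mx1, Ifih1, Ifi204, Rtp4 and Phf11d were also called lower, which gave 24 genes lower and 4 higher.

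**Figure D5:**
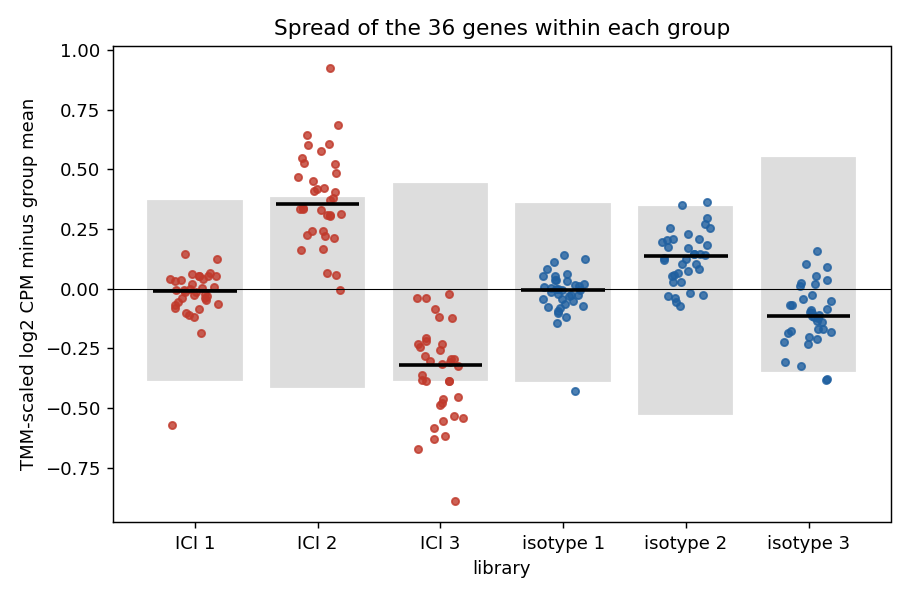
Each point is 1 of the 36 genes, plotted as its TMM-scaled log2 CPM in a library minus the mean of that group, with a black bar at the median and a grey band holding the middle 90% of all tested genes. Points of ICI replicate 2 sit above 0 (median 0.36), except that of Ifi27l2a just below it. All points of ICI replicate 3 sit below 0 (median -0.32), with a smaller split between isotype replicates 2 and 3.

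Of 8 genes of the type I receptor and ISGF3, 2 were called higher (25%), 3 lower (37.5%) and 3 not called, near the 35% and 33.9% of all tested genes. Irf7, which amplifies interferon production, fell 2.31-fold and Tyk2 1.70-fold (adjusted p = 0.00100 and 4.67e-05, edgeR). Irf9, the DNA-binding subunit of ISGF3, rose 1.81-fold, from 86.0 ± 1.11 to 179 ± 10.6 CPM (SD, n = 3), and Jak1 rose 1.38-fold (adjusted p = 7.54e-06 and 0.000560, edgeR). Stat2, Ifnar1 and Ifnar2 had log2 fold changes of -0.01, -0.09 and -0.06 and were not called.

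Interferon transcripts themselves were rare. Of 21 ligand genes, 13 had no count in any library and 1, Ifng, entered the test. Ifng, the gene of interferon gamma, had 31, 33 and 36 counts in ICI and 11, 12 and 23 counts in isotype, a rise of 2.36-fold (adjusted p = 0.00632, edgeR). The 5 natural killer cell markers summed to 43.0 to 69.5 CPM in ICI and 14.2 to 19.3 CPM in isotype, and all 5 were called higher. The 7 T cell markers summed to 23.0 to 35.6 against 4.16 to 5.95 CPM, with 3 of 4 tested called higher. Of these markers, Cd4 (mean 14.3 CPM in ICI, 0.621 in isotype) and Lck (11.9 and 2.99 CPM) had the highest levels in ICI. Cd3g was also called higher, at 0.919 against 0.256 CPM. Cd3e was not called (log2 0.21, adjusted p = 0.717, edgeR). Cd3d, Cd8a and Thy1 did not enter the test, and Cd8a had 7, 9 and 4 counts in ICI and 14, 4 and 22 in isotype. Which cells carried Cd4 and Lck was not tested. The part of natural killer cells or T cells in the rise of Ifng was not tested. Ifnb1 had 6, 6 and 2 counts in ICI and 5, 4 and 5 in isotype, so no difference was detectable at this depth. Of 12 sensing genes upstream of interferon, 3 were called higher (Tlr7 2.74-fold, Mavs 1.30-fold, Rigi 1.24-fold) and 5 lower. These shares, 25% and 41.7%, also lie near those of all tested genes. Ikbke, a kinase that activates interferon regulatory factors, fell 14.2-fold, from 155 ± 31.1 to 12.6 ± 1.09 CPM (SD, n = 3; adjusted p = 3.34e-07, edgeR), and Sting1, the adaptor of DNA sensing, fell 2.90-fold (adjusted p = 1.02e-06, edgeR). Tbk1, its partner kinase, fell 1.32-fold (adjusted p = 0.00142, edgeR).

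Other interferon genes give the setting of the list. Of 46 tested interferon-stimulated genes outside it (47 listed), 26 were called lower (56.5%) and 9 higher (19.6%), with a median log2 fold change of -0.42. Among all tested genes these shares were 33.9% and 35%, and the median was 0.03. Of the 46 genes, N4bp1 fell 2.28-fold, Sp140 2.39-fold and Lgals3bp 1.83-fold, and Ifi207 rose 2.41-fold and Trim56 1.84-fold (largest adjusted p = 0.000342, edgeR). Of 26 interferon gamma response genes, 22 were called lower (84.6%, against 33.9% of all tested genes) and 4 were not called by edgeR, with a median of -1.78. Il12rb1, a receptor chain for interleukin-12, fell by 5.64 on the log2 scale, Ido1, a tryptophan-degrading enzyme, fell by 5.09 and Irf8, a transcription factor of monocytes and dendritic cells, fell by 1.13 (adjusted p = 7.95e-07, 3.28e-06 and 1.15e-05, edgeR). Ido1 lay near the floor, with 0, 3 and 2 counts in ICI and 70, 60 and 67 in isotype, so the size of its fall is uncertain. ICI replicate 2 was also highest of its group for 25 of the 26 interferon gamma response genes (96.2%) and for 36 of the 46 (78.3%). Among all tested genes that share was 30.8%.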

How the data were processed

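Per the labels' protocols, a SMART-seq V4 kit gave libraries that keep no strand, sequenced in pairs from RNA of the sorted cells. The values deposited by the authors are raw counts for each Ensembl gene, whole numbers without normalization. STAR 2.7.10a, Salmon 1.10.1 and GRCm39 are named in the submitters' processing notes without roles. No source used here gives the annotation or says if the counts are rounded estimates. With no strand, reads from a gene and an overlapping antisense gene cannot be separated.

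Symbols matched 52029 identifiers (91.3%). Genes were tested with edgeR 4.0.16 (limma 3.58.1, R 4.3.3), quasi-likelihood F test, TMM, robust dispersions and filterByExpr with a minimum count of 10, which kept 14575 genes with 99.9% of counts; p-values were adjusted by Benjamini-Hochberg. SE is the absolute log2 fold change over the root of F. CPM use library totals, so a fitted fold can differ from a ratio of CPM means. Transcript lengths and the 50-base words shared between genes came from a GRCm38 annotation, and promoter windows from RefSeq GRCm38.p6, so no coordinates of the counted genes are given. The replicate comparison found 13.8 to 37.4 chi-square units per degree of freedom, so no 2 replicates agreed within sampling noise.

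The 36 genes, the other lists and the alternatives were chosen with earlier results of these data known. Values in all 6 libraries are given for the 6 called genes with the largest fall, for the rises, and for the gene of highest CPM in each role; of each pathway list up to 3 called genes in each direction with the smallest p are named, and always Stat2, Irf9, Irf7, Ifnar1, Ifnar2, Ifnb1 and Ifng. Some genes that this rule takes are not reported here. The scripts were tested on simulated data with few changed genes, equal in both directions. That check of the code cannot show whether the scaling suits these data, where most genes were called. Alternatives were DESeq2 1.42.0, limma-voom, RLE and upper-quartile factors, library totals, no filter, a strict filter (50 counts in 3 libraries), no robust estimation, a test against a 1.5-fold change, a replicate block, each library left out, replicate 3 of both groups left out, and a transcript length trend removed (lowess span 0.3, lengths for 97.6% of tested genes); the legacy quasi-likelihood fit was added after the data were seen.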

Additional observations from a re-analysis of the deposited data

How the results depend on the processing

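Over 19 alternatives, 684 values of the 36 genes were recomputed: 606 kept direction and call, 21 lost the call, 35 gained one and 22 changed sign. Of the 21 called genes, 12 kept their call in all 19 and 7 lost it only against a 1.5-fold change; Ifit3b and Rsad2 lost it in others too. Against a 1.5-fold change, 3 of the 36 genes were higher and 9 lower, and 3110 and 2410 of all genes; that test asks for more than a difference from 0. Leaving out each library in turn gave 4 to 6 of the 36 genes higher, 15 to 24 lower, 4624 to 5068 of all genes higher and 4500 to 4870 lower, and a median log2 fold change of the 36 from -0.77 to -0.37.

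Sign changes came in 5 genes, none of them called, and the cause was not tested. The log2 fold change of Ifit3 (0.02) became -0.072 with limma-voom, -0.0086 with no filter and -0.067 with the replicate block, and ran from -0.33 to 0.30 without 1 library. Eif2ak2 (-0.11) became 0.070 with upper-quartile factors and 0.093 with library totals, and ran from -0.23 to 0.018. Cmpk2 (-0.18) became 0.0064 and 0.023 under those scalings, and ran from -0.50 to 0.087. Parp14 (-0.07) became 0.12 and 0.13, then 0.021 with the strict filter and 0.076 without replicate 3 of both groups, and ran from -0.24 to 0.11. Trim30a (0.04) became -0.018 with the length trend removed, and ran from -0.13 to 0.13.

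Upper-quartile factors and library totals also called Isg20 and Ifi27l2a higher, and removing the length trend called both higher (Ifi27l2a 1.82-fold) and Ifih1 lower. DESeq2 gave 20 of the 36 genes lower and the fit without robust estimation 19. Whether same-numbered libraries form pairs is not stated in the labels, and the values do not settle it. Correlations of same-numbered deviations were 0.03, 0.06 and 0.13, and not every library correlated best with its own number. In both groups replicate 3 was the library with more Xist than Y-linked counts. The replicate block gave 6 of the 36 genes higher and 24 lower, with no call lost. Of the 21 interferon ligands 1 passed the filter, so the other ligands could not be compared at this depth.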

Other observations

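Neighbours of the 36 genes in 2 families are described here, named after their values were seen. Among PYHIN genes outside the list, Ifi203 rose 1.79-fold, from 120 ± 15.1 CPM in isotype to 248 ± 60.2 CPM in ICI (SD, n = 3; adjusted p = 0.00401, edgeR), and Ifi207 rose 2.41-fold. Ifi211 fell 1.78-fold and Ifi209 1.56-fold (adjusted p = 0.00616 and 0.00130, edgeR), and Aim2, the inflammasome sensor of DNA, fell 1.29-fold with overlapping CPM (adjusted p = 0.0258, edgeR). Mndal was not called (log2 0.19, adjusted p = 0.223, edgeR). Ifi205, the PYHIN gene that fell 5.49-fold, shares 49.5% of its 50-base words with Ifi211, so their split is uncertain. Shared words were searched only for the 36 genes, so how far Ifi203, Ifi207, Ifi209 and Mndal share sequence with each other is not known.

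The enzymes that load ISG15 were called lower, as Isg15 was. Uba7, the activating enzyme, fell 1.41-fold, at 182, 164 and 174 CPM in isotype and 147, 154 and 121 CPM in ICI (adjusted p = 0.00255, edgeR). Ube2l6, the conjugating enzyme, fell 1.93-fold, at 154, 164 and 137 CPM in isotype and 88.4, 117 and 66.0 CPM in ICI (adjusted p = 0.00623, edgeR). Neither gene's groups overlapped.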
